A study of Mus musculus with 9 samples.

Results

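The genes described here encode the proteins that join liver cells to each other: cadherins, claudins, connexins, desmogleins and desmocollins, and the zonula occludens scaffolds. Members were taken by symbol, as every gene whose name begins with Cdh, Cldn, Gja, Gjb, Gjc, Dsg, Dsc or Tjp followed by a digit, without pseudogenes. There were 71 members among 19938 genes measured, made up of 23 cadherins, 27 claudins, 12 connexins, 7 desmogleins and desmocollins and 2 zonula occludens genes. The rule itself uses symbols and no expression value, though it was set with earlier results of these data known.

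Liver RNA was hybridised to 9 Affymetrix arrays, 1 per animal and 3 per group. The wild-type group was C57BL/6J. The mutant group carried Clock-D19, a splicing mutation whose CLOCK protein pairs with BMAL1 but activates transcription poorly. The rescue group carried Clock-D19 too and had been given 35 µg of a plasmid (pLIVE vector) for wild-type CLOCK by hydrodynamic injection into the tail vein in week 10, a route that reaches mainly hepatocytes. No control injection of the other groups is described in the labels, so the injection and the plasmid cannot be told apart. From 10 weeks of age every group was fed for 5 weeks on chow with 45% fat, in 12 h light and 12 h dark as the labels state, and livers were taken at zeitgeber time 10, near the end of the light phase. Whole liver was used, so fewer cells of a type and less RNA per cell cannot be told apart.

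Hepatocytes hold together through several kinds of contact. Classical cadherins bind their like on the next cell and anchor actin through catenins, in adherens junctions. Claudins, with occludin, seal the tight junctions that keep bile in the canaliculus, and zonula occludens proteins tie them to actin. Connexins form the channels of gap junctions, through which ions and small metabolites pass from cell to cell. Desmogleins and desmocollins are the desmosomal cadherins, linked to keratin filaments through plakoglobin, plakophilins and desmoplakin. Vascular endothelium has a cadherin of its own, encoded by Cdh5.

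CLOCK with BMAL1 binds the E-box, whose core letters are CACGTG. These letters were searched in the 250 bases before each transcript start in RefSeq (GRCm38.p6), where the sequence reads the same on both strands. They were found in 2 of 62 promoters of members (3.23%), against 1978 of 32851 promoters in all (6.02%). The 62 promoters belonged to 47 members, and the matches were in Cdh15 and Tjp3. Tjp3 is shown because it was the single match among the 6 members with both a listed promoter and a changed level (Cdh18, Cldn1, Gjb1, Gjb2, Tjp1 and Tjp3). The match begins 55 bases before 1 of 2 listed Tjp3 starts, at chr10:81291305-81291334 on the minus strand, and lies downstream of the other start, which is 314 bases away. The E-box is in capitals.
Tjp3: ggcctgtctggcCACGTGagagcaccttgc
The related letters CACGTT, or AACGTG on the other strand, were found in 2 promoters of members, those of Cldn10 and Cldn18 (3.23%, against 3.85% of all promoters). A match is a description of these letters and does not show binding.

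Most members lay at the level of genes that liver does not use. As a yardstick, each array's 95th percentile of 1027 olfactory receptor genes was taken, which ranged from 5.74 to 6.04 on the log2 scale. On all 9 arrays 39 of the 71 members lay below it, 18 lay above it, and 14 lay above it on some arrays. The 18 were Cdh1, Cdh2, Cdh4, Cdh5, Cldn1, Cldn2, Cldn3, Cldn5, Cldn12, Cldn19, Cldn20, Dsc2, Dsg2, Gja3, Gjb1, Gjb2, Tjp1 and Tjp3. They include the genes known for hepatocyte contacts (Cdh1, Cdh2, Cldn1, Gjb1, Gjb2, Dsg2, Dsc2, Tjp1). Below the yardstick on every array were 15 cadherins, 15 claudins, 5 connexins and 4 desmosomal genes, among them Cdh8, Cdh9, Cdh10 and Cdh12, cadherins known from nervous tissue, and the skin desmosomal genes Dsg3 and Dsc3. Values near this level respond weakly to RNA amount, and a change there could have been missed.

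In mutant against wild-type liver, 9 members changed, 6 down and 3 up, and 62 did not pass (limma, adjusted p under 0.05 over all genes). That is 12.7% of the members, against 15.4% of all genes tested, of which 6.37% rose and 9.02% fell. The mutant and wild-type values did not overlap in 24 members (33.8%) and in 35.7% of all genes. Dsg1c, Cdh5, Dsc2, Tjp1, Gjb2 and Cdh1 fell, and Tjp3, Cldn1 and Gjb1 rose. With quantile normalization repeated the split was 4 up and 4 down. The median difference was 0.09 over the members and 0.07 over all genes. The changed members were 8 of the 18 above the yardstick on all arrays, where 23.7% of all such genes changed, 1 of the 14 in between and none of the 39 below it, of which 4 had an unadjusted limma p under 0.05.

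In rescue against mutant liver, 5 members changed: Cdh1, Dsg1c, Cldn1 and Tjp1 rose and Cdh18 fell (7.04% of members, against 3.81% of all genes, 2.61% up and 1.2% down). Values did not overlap in 17 members (23.9%) and in 25.7% of all genes. Of the 18 members above the yardstick on all arrays 3 changed (16.7%), against 5.86% of all such genes. The count was 2 without mutant replicate 1 and 3 without mutant replicate 2 or rescue replicate 1. It was 7 with median centring or with replicate number blocked. With quantile normalization repeated, a trended and robust prior or array weights it was 6. In rescue against wild-type liver, 3 members differed, with Cldn1 and Cdh1 higher and Dsg1c lower (4.23% of members, against 2.28% of all genes, 0.928% higher and 1.35% lower). Values did not overlap in 18 members (25.4%) and in 19.5% of all genes. Of the 18 members above the yardstick on all arrays 2 differed (11.1%), against 3.59% of all such genes. The count was 5 with 3 other settings given in the closing section. The median member differed by -0.11 and -0.01 in these comparisons, and the median gene by -0.05 and 0.01. The comparisons share arrays, so their values are given side by side and are not independent.

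**Figure D1:**
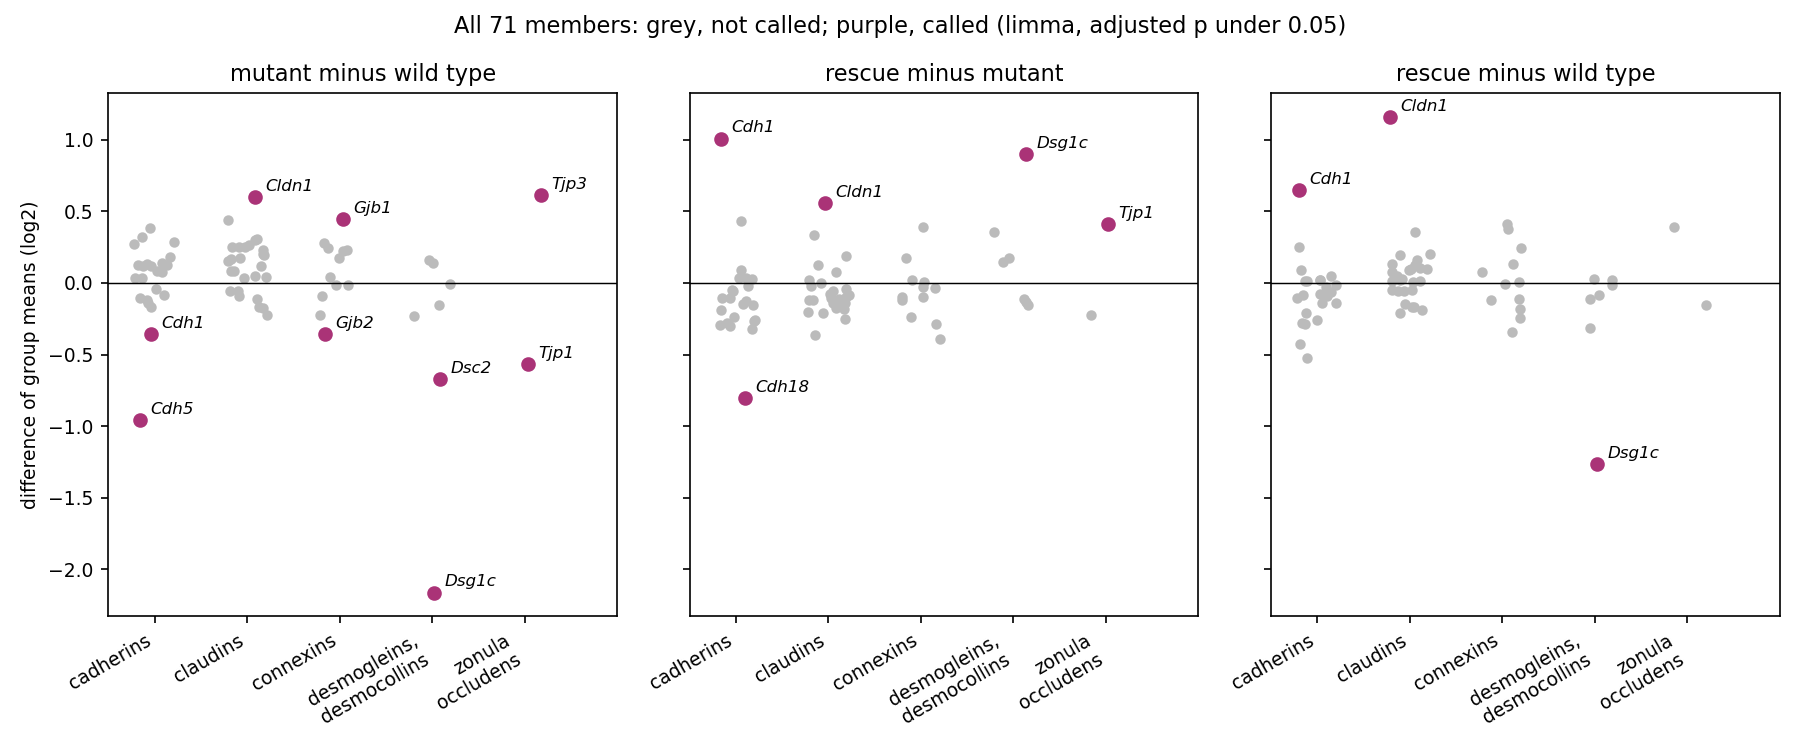
Differences of group means on the log2 scale (vertical axis) for all 71 members by family (horizontal axis), in the 3 comparisons; each point is a gene, purple where limma's adjusted p was under 0.05 and grey otherwise. Most members lie near 0, and Dsg1c at -2.16 in mutant minus wild type lies farthest from it.

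The desmosomal genes gave the largest difference among the members. Dsg1c, which encodes a desmoglein of the type best known from skin, measured 7.36, 7.34 and 7.42 in wild type, 5.33, 4.87 and 5.44 in mutant and 6.11, 6.38 and 5.85 in rescue. The groups did not overlap, and the rescue arrays lay between the others. It fell by 2.16 ± 0.15 (SE) on the log2 scale in mutant liver, a 4.48-fold lower level (95% interval -2.49 to -1.84, limma adjusted p = 1.59e-06, n = 3 per group). It rose by 0.90 ± 0.15 from mutant to rescue (limma adjusted p = 0.00839) and was -1.26 ± 0.15 in rescue relative to wild type (limma adjusted p = 5.56e-04). All 3 calls held in every alternative setting. The mutant arrays and rescue replicate 3 lay below their yardstick, so the size of the fall is uncertain. Near-identical desmoglein copies neighbour Dsg1c, and whether their RNA binds its probes was not tested.

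Dsc2, a desmocollin found in liver and heart desmosomes, also fell. Its levels were 9.37, 9.11 and 9.24 in wild type, 8.72, 8.25 and 8.73 in mutant, and 8.996, 8.84 and 8.93 in rescue. The order was that of Dsg1c, with no overlap between any groups. The mutant difference was -0.67 ± 0.13 (limma adjusted p = 0.00374, n = 3 per group). Rescue lay 0.35 ± 0.13 above mutant (limma adjusted p = 0.143) and -0.32 ± 0.13 from wild type (adjusted p = 0.278), and neither passed.

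Dsg2, the desmoglein of simple epithelia and heart, moved little: wild-type values were 8.98, 8.97 and 8.90, mutant values 8.85, 8.77 and 8.77, and rescue values 8.93, 8.97 and 9.03. Its mutant difference was -0.15 ± 0.09, with a 95% interval of -0.35 to 0.05. In the gene order of the reference, Dsc2, Dsg1c, Dsg1b and Dsg2 lie within 1 run of desmosomal genes. Dsg1b (-0.23 ± 0.11 in mutant), Dsc3 (0.16 ± 0.15), Dsg3 (0.14 ± 0.13) and Dsg4 (-0.004 ± 0.15) of the same run lay below the yardstick on every array and did not pass. Dsc3, Dsg3 and Dsg4, and Gja5 and Gjc3 further on, were named after their values were seen.

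**Figure D2:**
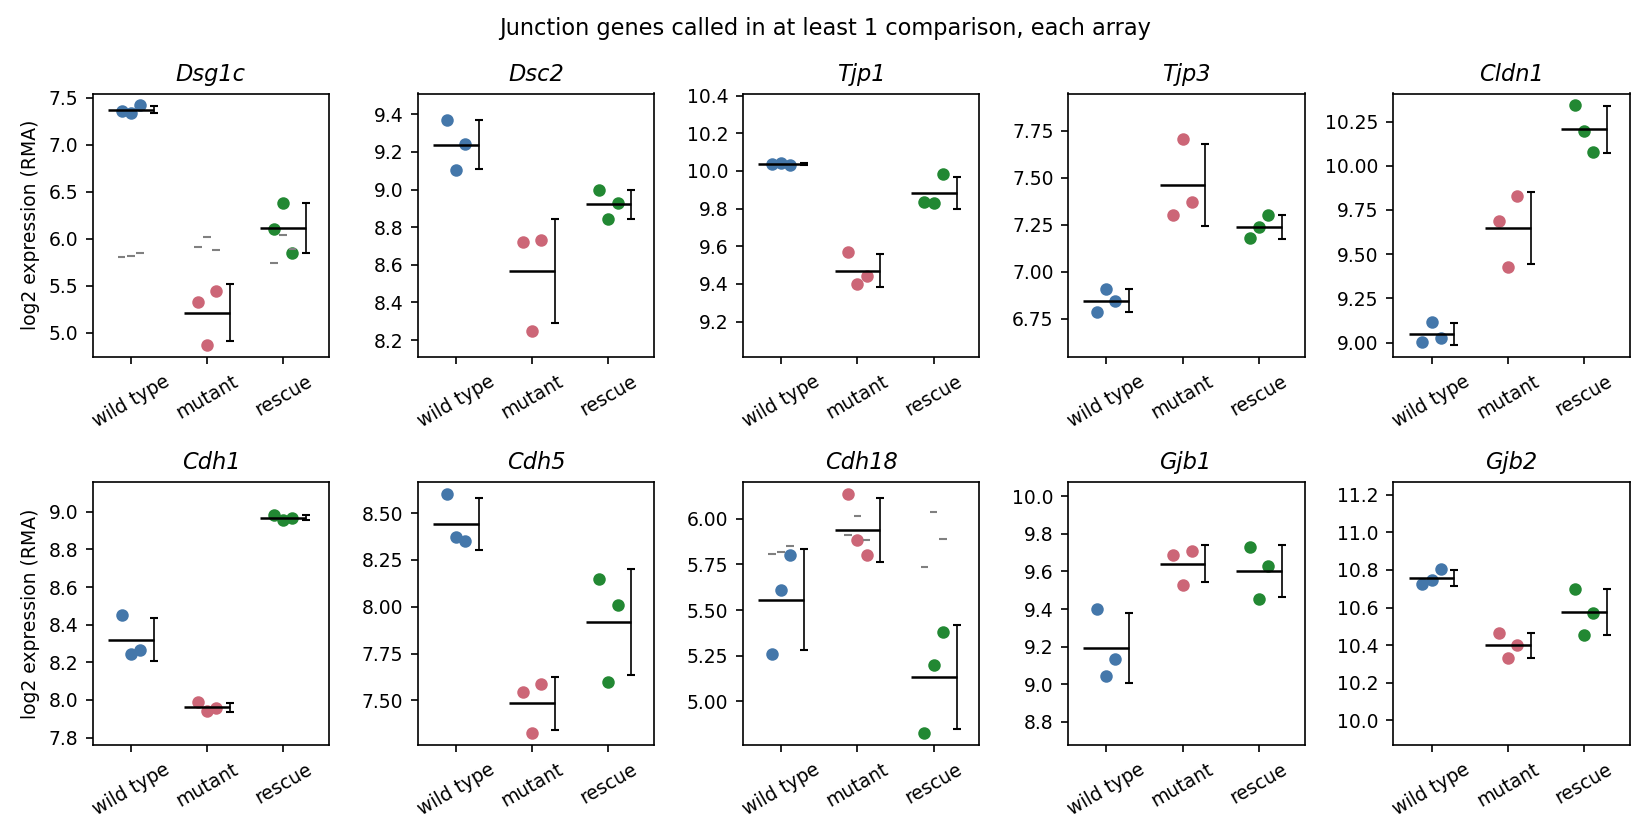
Log2 expression (vertical axis; the scale differs between panels) of the 10 members called in at least 1 comparison, by group (horizontal axis). Points are the 3 arrays of a group, long black bars the mean, whiskers the SD, and short grey bars in the Dsg1c and Cdh18 panels each array's olfactory yardstick; Cdh1 in rescue lies above both other groups, and Cldn1 is higher in mutant than in wild type and higher again in rescue.

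Tight junction genes changed in both directions. Cldn1, the claudin known for sealing the bile canaliculus, measured 9.001, 9.12 and 9.03 in wild type, 9.69, 9.43 and 9.83 in mutant and 10.34, 10.20 and 10.08 in rescue. The 3 groups were separate, in the order wild type, mutant, rescue, so rescue lay farther from wild type than mutant did. It rose by 0.60 ± 0.12 in mutant (limma adjusted p = 0.00389, n = 3 per group). It was 0.56 ± 0.12 higher in rescue than in mutant (limma adjusted p = 0.0229) and 1.16 ± 0.12 higher in rescue than in wild type, a 2.23-fold difference (limma adjusted p = 1.12e-04). The rescue against mutant call was lost without mutant replicate 1 or 2 or rescue replicate 1 or 2 (0.45 to 0.58, limma adjusted p = 0.0625 to 0.0717). The other calls held in every setting.

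The zonula occludens genes moved in opposite directions in the mutant. Tjp1, the scaffold that binds claudins, occludin and actin, measured 10.04, 10.04 and 10.03 in wild type, 9.57, 9.40 and 9.44 in mutant, and 9.83, 9.83 and 9.98 in rescue. It fell by 0.57 ± 0.10 in mutant (limma adjusted p = 0.00176, n = 3 per group) and rose by 0.41 ± 0.10 from mutant to rescue (limma adjusted p = 0.0361). The rise was lost on leaving out any 1 of the 6 arrays compared (0.36 to 0.46, limma adjusted p = 0.0572 to 0.128), with those 6 arrays alone (0.0633) and with the gene-span trend removed (0.0525). Rescue differed from wild type by -0.16 ± 0.10 (limma adjusted p = 0.544).

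Tjp3, a related scaffold of epithelial junctions, measured 6.79, 6.91 and 6.85 in wild type, 7.30, 7.71 and 7.37 in mutant and 7.18, 7.24 and 7.30 in rescue. Every mutant array was above every wild-type array, and the rescue arrays lay between, only just below the lowest mutant array. It rose by 0.61 ± 0.12 in mutant (limma adjusted p = 0.00284, n = 3 per group), a call kept in every setting. Rescue was -0.22 ± 0.12 from mutant (limma adjusted p = 0.29) and 0.39 ± 0.12 from wild type (limma adjusted p = 0.102). The last difference was called with array weights (0.41, limma adjusted p = 0.0413). The E-box printed above lies before a start of this gene.

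The other claudins did not pass in any comparison. Cldn2, which forms cation pores and is known from hepatocytes near the central vein, measured 7.97, 7.84 and 7.93 in wild type, 8.20, 8.18 and 8.25 in mutant and 8.31, 7.74 and 8.16 in rescue. Mutant and wild type did not overlap (0.30 ± 0.13, limma adjusted p = 0.132), and the difference was called with quantile normalization repeated (0.37, limma adjusted p = 0.0399). Cldn3, a sealing claudin, differed by 0.31 ± 0.12 between mutant and wild type (limma adjusted p = 0.101) and by -0.36 ± 0.12 between rescue and mutant (adjusted p = 0.105). Cldn12 (-0.06 ± 0.13) and Cldn14 (0.09 ± 0.11) had intervals from -0.34 to 0.22 and from -0.14 to 0.31 in mutant against wild type. Cldn24, which gave the largest difference of an uncalled claudin (0.44 ± 0.16, limma adjusted p = 0.0816), lay below the yardstick on every array.

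Among the classical cadherins, Cdh1 changed in all 3 comparisons. It encodes E-cadherin, known in liver from periportal hepatocytes and bile ducts. Its levels were 8.45, 8.24 and 8.26 in wild type, 7.99, 7.94 and 7.95 in mutant and 8.98, 8.96 and 8.97 in rescue. The 3 groups were separate, and rescue lay above wild type rather than between the others. It rose 2.01-fold from mutant to rescue (1.01 ± 0.10, limma adjusted p = 1.95e-04, n = 3 per group) and was 0.65 ± 0.10 higher in rescue than in wild type (limma adjusted p = 0.00255), and both calls held in every setting.

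The fall of Cdh1 in the mutant was smaller, at 0.36 ± 0.10 (-0.36, limma adjusted p = 0.024). It was lost without wild-type replicate 1 or any 1 mutant array (-0.37 to -0.29, limma adjusted p = 0.0545 to 0.101), with quantile normalization repeated (-0.29, 0.0562) and with the gene-span trend removed (-0.29, 0.0596). Of the bile duct markers, Epcam and Krt19 lay below the yardstick on all 9 arrays, as did 7 of the 11 measured. From mutant to rescue 1 of the 11, Krt23, rose (0.69 ± 0.14, limma adjusted p = 0.0211) and none fell (9.09%, against 3.81% of all genes). The summed level of the 11 was 9.08 to 9.17 in wild type, 8.98 to 9.12 in mutant and 9.20 to 9.37 in rescue on the log2 scale, and its part in the Cdh1 result was not tested.

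Cdh2 encodes N-cadherin, which hepatocytes also carry. It measured 9.74, 9.93 and 10.11 in wild type, 9.75, 9.83 and 9.69 in mutant and 9.90, 9.74 and 9.90 in rescue. All 3 groups overlapped, and the 95% interval was -0.41 to 0.07 for mutant against wild type and -0.15 to 0.33 for rescue against mutant. The test of whether Cdh1 and Cdh2 differed in their response was not run.

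Cdh18, a cadherin known from nervous tissue, fell by 0.81 ± 0.16 from mutant to rescue (limma adjusted p = 0.0167, n = 3 per group). Its levels were 5.26, 5.61 and 5.80 in wild type, 6.14, 5.88 and 5.80 in mutant and 4.83, 5.20 and 5.38 in rescue. On 8 of 9 arrays these lay below the yardstick, so the call rests on values at the level of unused genes. It was lost without mutant replicate 1 (-0.71, limma adjusted p = 0.069), and the gene was not tested without the dimmest 40% of genes.

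Cdh5 encodes VE-cadherin, the adherens junction cadherin of endothelium. It measured 8.60, 8.37 and 8.35 in wild type, 7.54, 7.32 and 7.59 in mutant and 8.15, 7.60 and 8.01 in rescue. Mutant arrays lay below all others and rescue between, without overlap. The lowest rescue array (7.60) was only just above the highest mutant array (7.59). Cdh5 fell 1.94-fold in mutant (-0.96 ± 0.14, limma adjusted p = 5.48e-04, n = 3 per group), in every setting. Rescue was 0.43 ± 0.14 above mutant (limma adjusted p = 0.0973; 0.0469 without rescue replicate 2 and 0.0484 with replicate number blocked) and -0.52 ± 0.14 from wild type (limma adjusted p = 0.0676). The last difference was called in 5 settings, among them without rescue replicate 1 (-0.64, limma adjusted p = 0.0481) and with the block (0.0303).

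Endothelial markers moved on the same arrays as Cdh5. Of 19 such markers 11 fell and none rose in mutant (57.9%, against 15.4% of all genes called). From mutant to rescue 4 rose and none fell (21.1%, against 3.81% of all genes). Their summed level was 12.20 to 12.39 in wild type, 11.69 to 11.74 in mutant and 11.89 to 12.17 in rescue on the log2 scale, and none lay below the yardstick on all arrays. Their part in the Cdh5 result was not tested. Junction genes known from vessels differed among themselves in the mutant. Jam2, a junctional adhesion molecule of endothelium, fell by nearly as much as Cdh5 (-0.95 ± 0.12, limma adjusted p = 1.79e-04), and rescue was 0.30 ± 0.12 above mutant (limma adjusted p = 0.161). Of the others shown, none passed: Cldn5, the claudin of tight endothelium, was at 0.25 ± 0.13 in mutant (95% interval -0.02 to 0.53), the arterial connexin genes Gja4 and Gja5 at 0.04 ± 0.11 and 0.17 ± 0.13, and the adhesion molecule gene Esam at 0.23 ± 0.10 (limma adjusted p = 0.149). Gja5 lay below the yardstick on every array and Gja4 and Esam on some, whereas Cldn5 lay above it.

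**Figure D3:**
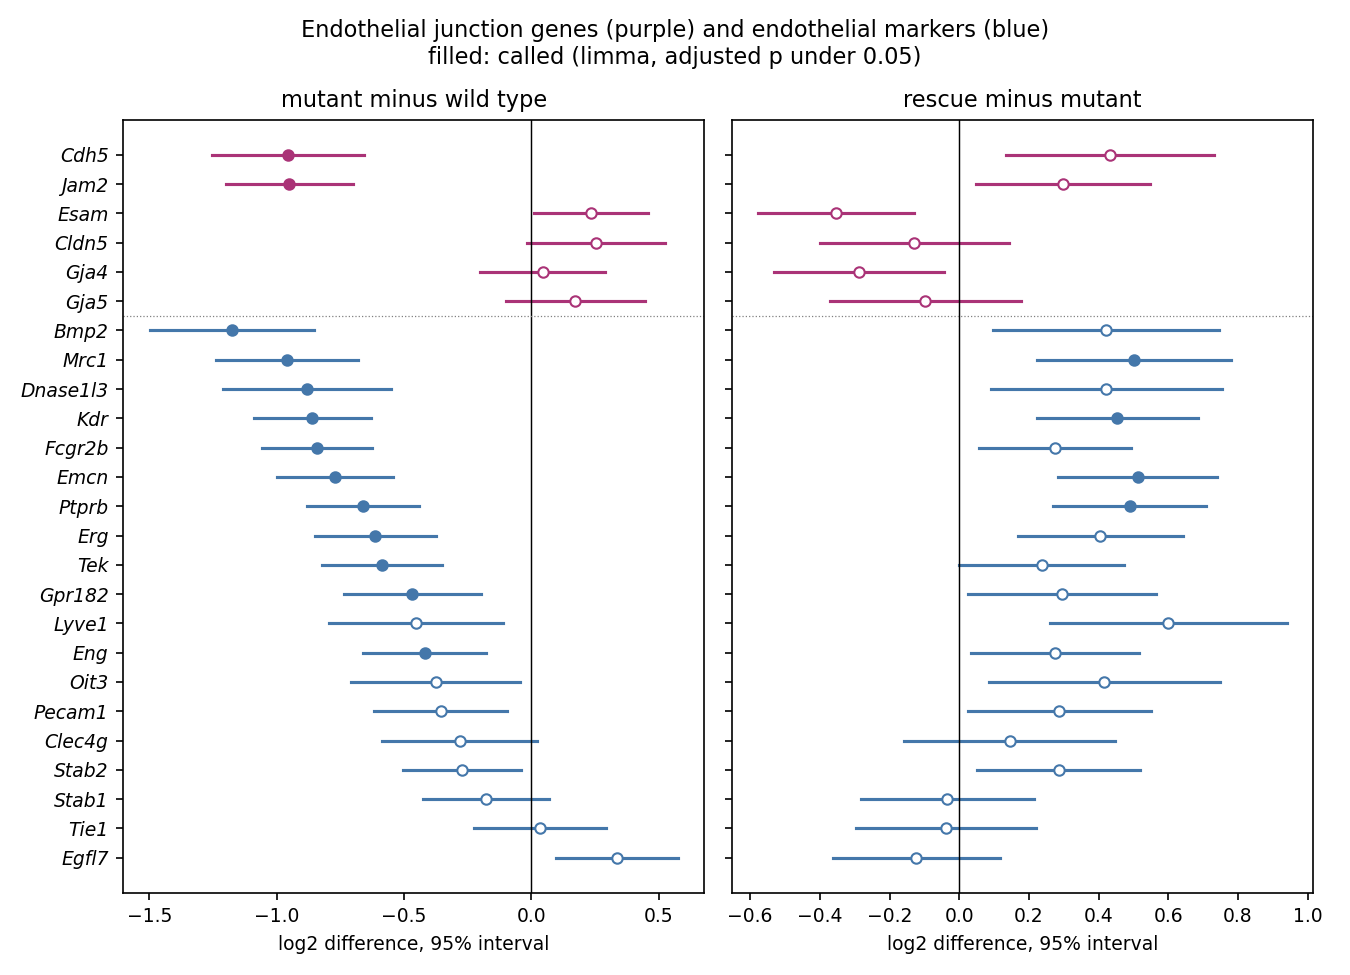
Log2 differences (horizontal axis) with 95% intervals for mutant minus wild type and rescue minus mutant; purple marks junction genes known from endothelium, blue the 19 endothelial markers, and filled points those called by limma. Cdh5 at -0.96 and Jam2 at -0.95 lie among the markers that fell, while Cldn5, Gja4, Gja5 and Esam lie above 0 in mutant minus wild type.

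The hepatocyte connexin genes moved in opposite directions in the mutant. Gjb1, which encodes the main gap junction protein of hepatocytes, measured 9.40, 9.05 and 9.13 in wild type, 9.69, 9.53 and 9.71 in mutant and 9.73, 9.45 and 9.63 in rescue. Mutant and rescue overlapped with each other and lay above wild type. It rose by 0.45 ± 0.12 in mutant (limma adjusted p = 0.0213, n = 3 per group). The call was lost with each array centred on its median (0.37, limma adjusted p = 0.0703), with the span trend removed (0.36, 0.0582), and without mutant replicate 1 or 3 or wild-type replicate 2 or 3 (0.37 to 0.42, limma adjusted p = 0.0687 to 0.0815). Rescue was -0.04 ± 0.12 from mutant (95% interval -0.29 to 0.22) and 0.41 ± 0.12 from wild type (limma adjusted p = 0.0961). The last difference was called with quantile normalization repeated (0.49, limma adjusted p = 0.0252) and with a trended and robust prior (0.41, limma adjusted p = 0.039).

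Gjb2, whose protein shares hepatocyte gap junctions with that of Gjb1, measured 10.72, 10.75 and 10.80 in wild type, 10.46, 10.33 and 10.40 in mutant and 10.70, 10.45 and 10.57 in rescue. It fell by 0.36 ± 0.10 in mutant (limma adjusted p = 0.0282, n = 3 per group). The call was lost with quantile normalization repeated (-0.27, limma adjusted p = 0.0537) and without mutant replicate 2 or 3 or any 1 wild-type array (-0.38 to -0.33, limma adjusted p = 0.0577 to 0.0936). Rescue overlapped with mutant (0.18 ± 0.10, limma adjusted p = 0.338).

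In the reported fit no connexin passed limma in rescue against mutant or rescue against wild type, where 3 and 5 of the 12 had an unadjusted p under 0.05. Gja1, the connexin of stellate cells, vessels and the capsule, measured 5.97, 6.22 and 6.00 in wild type, 5.91, 5.69 and 5.91 in mutant and 5.91, 5.42 and 5.82 in rescue (mutant against wild type -0.23 ± 0.13, limma adjusted p = 0.269). Gjc1 was at 0.28 ± 0.14 in mutant and -0.39 ± 0.14 from mutant to rescue (limma adjusted p = 0.136; 0.0473 with replicate number blocked). Gjc1 lay below the yardstick on all 9 arrays and Gja1 on 4, so these values were near the level of unused genes.

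**Figure D4:**
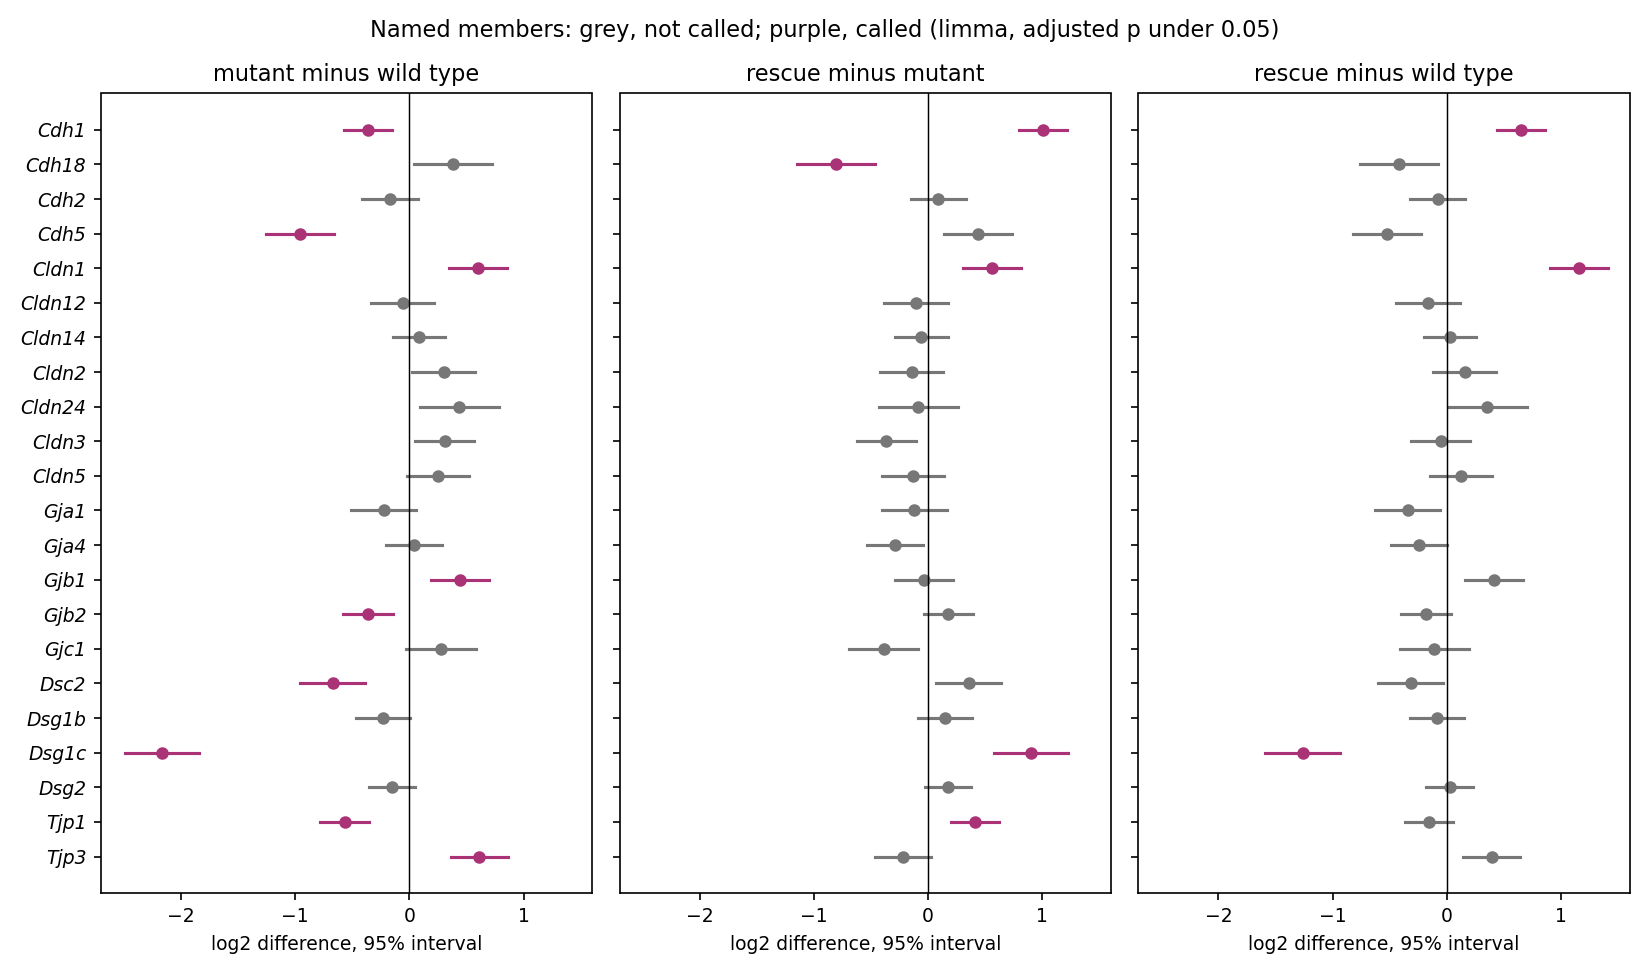
Log2 differences (horizontal axis) with limma's 95% intervals for the 22 members named by rule, in the 3 comparisons; purple marks those called and grey those not. Cdh1 and Cldn1 lie above 0 in both comparisons that include rescue, while Dsg1c lies above 0 against mutant and below 0 against wild type.

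The order of the groups differed between members. Of the 10 members called in at least 1 comparison, 7 had 3 separate groups. These 10 were chosen by differences between the same groups. Separate groups were seen in no other member, so the share was 9.86% of the 71 members, against 4.83% of all genes. Rescue lay between mutant and wild type in 5 of the 7 (Dsg1c, Dsc2, Tjp1, Tjp3 and Cdh5), above both in Cdh1, and beyond mutant in Cldn1. The share of each order among all genes with separate groups is not given here.

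The 61 members called in no comparison ranged from -0.23 (Dsg1b) to 0.44 (Cldn24) in mutant against wild type, with 41 above 0 and 20 below. From mutant to rescue they ranged from -0.39 (Gjc1) to 0.39 (Gjc3), and 47 lay below 0. The median over all genes lay on the same sides, at 0.07 and -0.05 in these comparisons. With each array centred on its median it was -0.004 and 0.0075, so such sign counts depend on the normalization. Between rescue and wild type the 61 members ranged from -0.34 (Gja1) to 0.38 (Gjc3), with 31 above 0. The smallest adjusted p among them in the reported fit was 0.0606, that of Gjc3 from mutant to rescue. Some of the 61 passed in other settings, from mutant to rescue for example with median centring.

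Other junction genes, called partners here, were read from a list of 58 genes, of which 57 were measured. They include catenins, plakins, plakophilins, tight junction scaffolds, nectins and polarity proteins. The list also holds the connexin genes Gjd2, Gjd3, Gjd4 and Gje1 and the pannexin genes Panx1, Panx2 and Panx3. None of these channel genes passed in any comparison, and Gjd2, Gjd4, Gje1 and Panx3 lay below the yardstick on every array. In mutant against wild type 3 rose, 4 fell and 50 did not pass (12.3%, against 15.4% of all genes; median 0.08). Jam2 fell by 0.95 ± 0.12, as given above, and Mpp5, a polarity scaffold of tight junctions, by 0.92 ± 0.12. The tight junction scaffold gene Magi3 fell by 0.58 ± 0.11 and Nectin3, an adhesion molecule of adherens junctions, by 0.45 ± 0.10. Cgn, whose product cingulin binds zonula occludens proteins, rose by 0.60 ± 0.11, Nectin1 by 0.54 ± 0.13 and the tight junction receptor gene Cxadr by 0.39 ± 0.11 (limma adjusted p at most 0.0261 for each of the 7). Cxadr was not called in 6 of its 15 settings and Nectin1 in 2 (without mutant replicate 2 or wild-type replicate 3).

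From mutant to rescue 2 of the 57 partners passed, Mpp5 and Pkp2 (3.51%, against 3.81% of all genes). Mpp5 measured 8.99, 9.08 and 9.26 in wild type, 8.36, 7.98 and 8.22 in mutant and 8.78, 8.82 and 8.77 in rescue. It rose by 0.60 ± 0.12 from mutant to rescue (limma adjusted p = 0.0144; 0.0529 at most, without rescue replicate 2 or 3). Cgn, like Cldn1, was highest in rescue: it measured 7.46, 7.35 and 7.35 in wild type, 8.07, 7.87 and 8.03 in mutant and 8.47, 8.11 and 8.20 in rescue. It was 0.88 ± 0.11 higher in rescue than in wild type (limma adjusted p = 9.18e-04) and 0.27 ± 0.11 higher than in mutant (adjusted p = 0.189).

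The desmosomal plaque gene Pkp2 rose from mutant to rescue by 0.45 ± 0.12 (limma adjusted p = 0.0468). That call was lost in 8 of 15 settings: without any 1 mutant array or rescue replicate 2 or 3, with quantile normalization repeated, with the 6 arrays alone and with the gene-span trend removed (adjusted p up to 0.133). It measured 9.01, 9.25 and 9.35 in wild type, 8.91, 8.82 and 8.87 in mutant and 9.15, 9.44 and 9.36 in rescue, so mutant lay below both other groups. Dsp, which encodes desmoplakin, was at -0.34 ± 0.13 in mutant (limma adjusted p = 0.0931) and plakoglobin (Jup) at 0.03 ± 0.10.

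Between rescue and wild type 4 of the 57 partners differed (7.02%, against 2.28% of all genes): Cgn and Cxadr were higher (0.51 ± 0.11 for Cxadr), and Jam2 (-0.65 ± 0.12) and the plakin gene Ppl (-0.65 ± 0.15) lower. Ppl was not called without any 1 rescue array or wild-type replicate 1 (adjusted p up to 0.141), nor Cxadr without rescue replicate 1 or 2 or any 1 wild-type array (up to 0.101). The catenin genes that link cadherins to actin did not pass: Ctnnb1 was at 0.08 ± 0.11 in mutant, Ctnna1 at -0.04 ± 0.11 and Ctnnd1 at -0.07 ± 0.10, with 95% intervals lying between -0.28 and 0.32.

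**Figure D5:**
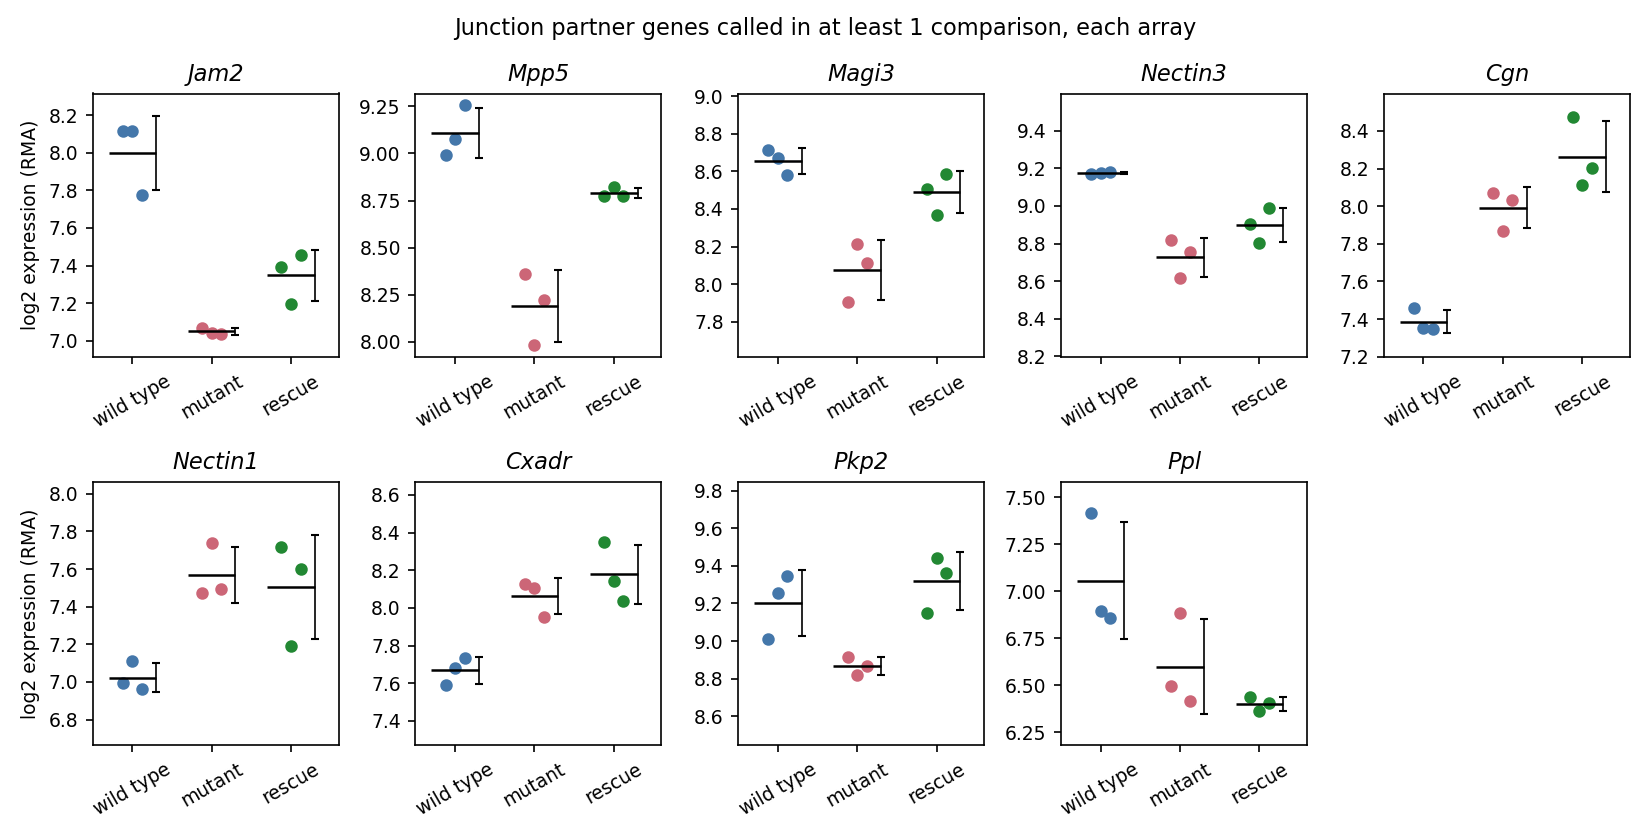
Log2 expression (vertical axis; the scale differs between panels) of the 9 partner genes called in at least 1 comparison, by group (horizontal axis); points are arrays, long bars means and whiskers SD. Mpp5 and Magi3 are lowest in mutant, and Cgn is lowest in wild type.

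Other cell types and the whole arrays showed the following. Of 14 hepatocyte markers 2 rose and none fell in mutant (14.3%, against 15.4% of all genes called). None passed from mutant to rescue (1 with an unadjusted limma p under 0.05). Of 14 Kupffer cell markers 9 fell in mutant (64.3%) and 1 rose from mutant to rescue (7.14%, against 3.81% of all genes). Of 15 markers of stellate cells and fibroblasts 1 rose and 3 fell in mutant (26.7%), and 3 rose in rescue against mutant (20%). Of 11 bile duct markers 2 fell in mutant (18.2%), Krt23 and Tspan8, and Tspan8 lay below the yardstick on every array. Of 9 genes on the mesothelial list, Krt8 and Krt18, keratins that hepatocytes also express, rose in mutant (22.2%) while the other 7 did not pass. From mutant to rescue Gpm6a and Muc16 of that list rose (22.2%), with Muc16 below the yardstick on every array. The deviation of genes from their mean also followed genomic span, with Spearman's rho across 19855 genes, which are not independent replicates, from -0.21 to -0.16 on mutant arrays, 0.11 to 0.18 on wild-type arrays and -0.03 to 0.11 on rescue arrays. With that trend removed, 7 of the 9 members called in mutant against wild type were called, and Cdh1 and Gjb1 were not. No member lay within 100 tested genes of Clock.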

How the data were processed

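The authors deposited log2 levels for each probe set. RMA and Affymetrix Expression Console are named in the submitters' processing notes, with no version in the sources used here. That the scale is log2 was judged from the range of the values. Of 35556 probe sets, 21789 had 1 gene symbol, 1621 had several and 12146 had none. The platform annotation gave the symbols, checked by Entrez identifier against RefSeq (GRCm38.p6; 21698 matched). The brightest probe set per gene was kept, which left 19938 genes; 3 members had more than 1. All 9 arrays were fitted together with limma 3.58.1 in R 4.3.3 (lmFit, eBayes; 6 residual and 8.475 prior degrees of freedom), with Benjamini-Hochberg adjustment over all genes in each comparison, two-sided. SE and 95% intervals are the model's. The number of arrays limits the precision, and p-values measure the spread between these animals.

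On data simulated for 19938 genes, 56% of simulated log2 changes of 0.5 and 100% of those of 1 were called for mutant against wild type. The shares were 43% and 99% for rescue against mutant, and 53% and 100% for rescue against wild type. Of 168, 154 and 157 genes called in the simulations, 12, 12 and 4 had not been changed. In the data 3068, 759 and 454 genes were called, which moves the adjusted p cutoff, and the simulated noise was normal. The shares therefore need not hold for the data.

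Members and lists were chosen with earlier results of these data known. Named members were those called in any comparison, 18 measured genes of hepatocyte and vessel junctions, and the 3 largest mutant differences per family. Marker lists covered hepatocytes, endothelium, Kupffer cells, stellate cells and fibroblasts, bile duct and mesothelium. Alternatives were a block for replicate number, the dimmest 40% of genes left out, quantile normalization repeated, median centring, a trended and robust prior, array weights, 6 arrays only, the mean of probe sets, the span trend removed, and each array left out. Figures were drawn with matplotlib.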

Additional observations from a re-analysis of the deposited data

How the results depend on the processing

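None of the 66 differences of named members (22 genes in 3 comparisons) that was called, in the reported fit or an alternative, changed sign. In mutant against wild type 6 of 9 calls held in every setting (Cdh5, Cldn1, Dsc2, Dsg1c, Tjp1 and Tjp3), from mutant to rescue 2 of 5 (Cdh1 and Dsg1c), and between rescue and wild type all 3. Leaving out 1 array at a time gave 6 to 7 called members in mutant against wild type, 2 to 4 from mutant to rescue and 3 to 4 between rescue and wild type, where 9, 5 and 3 were called with all arrays. Between rescue and wild type 5 members were called without the dimmest 40% of genes, with a trended and robust prior and with array weights.

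Counts of called partner genes moved more. In mutant against wild type they were 7, and 12 without the dimmest 40% of genes, with quantile normalization repeated and with a trended and robust prior. From mutant to rescue they were 2, and 5 without the dimmest 40%, 4 with the trended prior, 5 with array weights, and 1 with 6 arrays alone or the span trend removed. Between rescue and wild type they were 4, and 7 without the dimmest 40%, with the trended prior and with array weights. Leaving out single arrays gave 5 to 8, 0 to 2 and 2 to 4. The count of 0 from mutant to rescue arose without rescue replicate 2 or 3. The cause was not tested, except that fewer genes or arrays enter some of these fits.

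The replicate numbers did not show that the samples were paired: deviations of same-numbered arrays correlated at -0.11 to 0.19 over 9 pairs, 4 of them over 0.1. Differently numbered arrays of different groups correlated at -0.26 to 0.18, a range that overlaps the first. With the replicate number as a block 9, 7 and 4 members were called. Signal over background limits the 39 members at the level of unused genes.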
